A study of Rattus norvegicus with 8 samples.

Results

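The proteasome genes of rat liver were followed in 50 of the 26208 probe sets of a NimbleGen expression array. They were taken by gene symbol: every probe set whose symbol in the files, or current symbol by gene identifier, begins with Psma, Psmb, Psmc, Psmd, Psme, Psmf or Psmg and a digit, leaving out the interferon-inducible genes Psmb8, Psmb9, Psmb10, Psme1 and Psme2. These 50 probe sets stood for 45 gene names, and 12 of them were found through the current symbol only. Not every member codes for a subunit of the constitutive particle. Assembly chaperones, activators, proteins named only for binding a subunit, a testis-type and a thymus-type subunit and several subunit-like loci carry the same symbols, and they are described apart.

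The proteasome is the protease that removes ubiquitin-tagged proteins from the cytosol and nucleus. Its 20S core is a stack of rings, with outer rings of alpha subunits that gate the channel and inner rings of beta subunits, of which Psmb5, Psmb6 and Psmb7 carry the cutting sites. A 19S cap of ATPases and non-ATPase subunits binds tagged proteins, removes the tag and threads the chain into the core. Dedicated chaperones build both parts, and the transcription factors Nrf1 (gene Nfe2l1) and Nrf2 (gene Nfe2l2) are known to raise proteasome genes under proteotoxic and oxidative stress. In cells exposed to interferon, Psmb9, Psmb10 and Psmb8 take the places of Psmb6, Psmb7 and Psmb5 in the core.

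Liver RNA came from 8 male F344/N rats, with 1 array per rat. The treated group of 4 rats received thioacetamide, a hepatotoxicant that liver enzymes convert to its reactive form, for 28 days. The 4 control rats received no toxicant and were kept on basal diet and tap water; gavage is the route named for both. The labels used here state neither a dose nor an age.

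Values are log2 expression after RMA, so a difference of 1 is a 2-fold change, and the level of one probe set cannot be set against that of another. The 8 arrays had medians of 7.27 to 7.40. Olfactory receptor genes are not expected in liver, and the 95th percentile of their probe sets served as each array's background. It lay between 6.96 and 7.88 in controls and between 6.53 and 6.93 in treated rats. All 9 hepatocyte markers (among them Alb, Apoa1 and Ttr) were above background on all arrays and 0 of them passed the limma test (0 before adjustment), with differences from -0.35 to 0.18. Control replicate 3 had the lowest mean correlation with its group (0.9346, against 0.9545 to 0.9592 for the other controls).

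The subunit genes of the constitutive proteasome gave no call in treated liver, and both members that changed were assembly chaperones. Of the 50 probe sets, 1 rose (Psmd5) and 1 fell (Psmg1) in the limma fit at an adjusted p under 0.05, where 9.46% of all 26208 probe sets rose and 5.14% fell. At an unadjusted p under 0.05 there were 5 higher and 2 lower, against 16.9% and 12.6% of all probe sets. Groups did not overlap for 4 higher and 2 lower members, against 13.9% and 7.55% of all probe sets. The median log2 difference of the 50 was 0.08, and that of all probe sets was -0.03.

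A p-value that misses the threshold does not show that a level was kept, so the 95% intervals of the differences are given. For 41 of the 50 members the whole interval lay inside a 2-fold change in either direction, against 50.6% of all probe sets. Brightness matters here, since bright probe sets vary less. Among members with a mean log2 level between 12 and 14, the interval lay inside a 2-fold change for 31 of 31, against 61.5% of the 2192 probe sets of that brightness, and 0 of these 31 passed the test, against 25% of the 2192 (before adjustment, 3 of the 31 were higher and 0 lower at p under 0.05, against 521 and 417 of the 2192). The median size of the difference was 0.18 for those 31 and 0.39 for the 2192. These shares describe the members and were not tested.

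**Figure D1:**
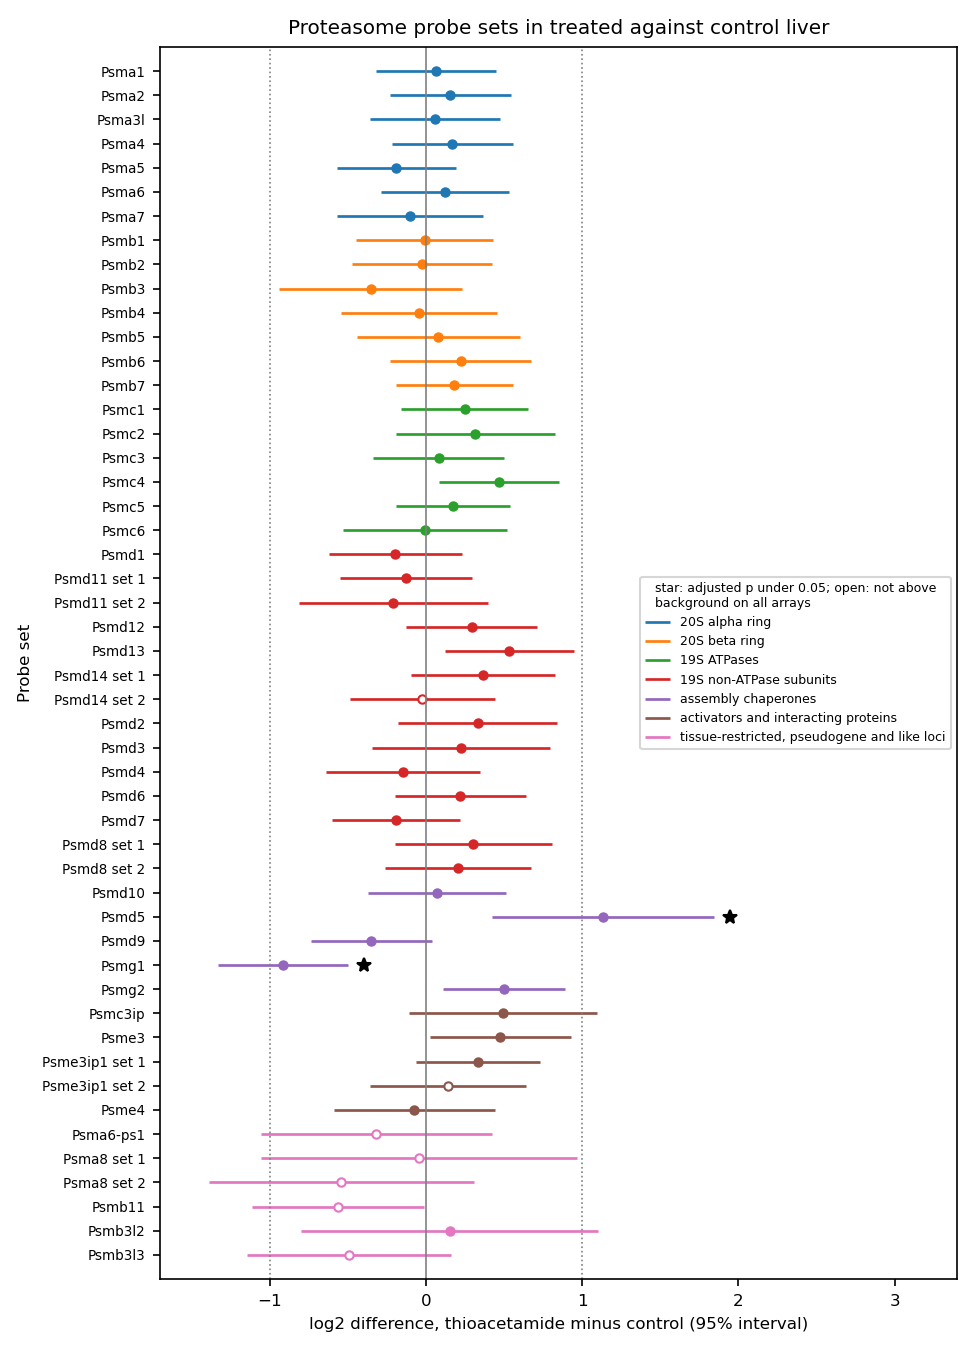
Log2 difference between treated and control liver (x axis) with its 95% interval for each of the 50 probe sets (y axis), coloured by role. Filled points were above background on all 8 arrays, stars mark the 2 members past the threshold, and dotted lines mark a 2-fold change: all intervals of the 20S and 19S subunits lie between them.

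The outer, alpha ring of the 20S core was measured by 7 probe sets (Psma1, Psma2, Psma4, Psma5, Psma6, Psma7 and the Psma3-like Psma3l), all above background on all arrays. Their differences ran from -0.19 to 0.17. In limma 0 of 7 passed (0 before adjustment), against 23.5% of the 10120 probe sets above background on all arrays. With only 7 probe sets, a count of 0 cannot be set apart from that share. Psma4 had the largest positive difference, 0.17 ± 0.17 (SE, adjusted p = 0.556): its level was 12.75, 12.82, 13.13 and 12.94 in control replicates 1 to 4 and 13.15, 13.01, 13.09 and 13.06 in the treated rats. Its control replicate 3 lay among the treated values. Psma5 had the largest negative difference, -0.19 ± 0.17 (adjusted p = 0.506), with 12.90, 12.68, 12.93 and 12.74 in controls and 12.74, 12.69, 12.51 and 12.56 in treated rats, again with overlapping groups. Psma3l is named as a Psma3-like locus and Psma6 has a locus named as its pseudogene, so which copy these probes measured is uncertain. No alpha-ring interval went beyond -0.57 or 0.56.

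The inner, beta ring was measured by 7 probe sets, and 0 of 7 passed in limma (0 before adjustment). As for the alpha ring, that count cannot be set apart from the 23.5% of all probe sets above background. Psmb5, which carries the chymotrypsin-like site that clinical proteasome inhibitors block, was at 13.53, 13.17, 13.79 and 13.19 in controls and 13.74, 13.22, 13.22 and 13.83 in treated rats. In both groups the values split into higher and lower rats, and the difference was 0.08 ± 0.23 (95% interval -0.44 to 0.60). Psmb6, the caspase-like subunit, was at 12.40, 12.48, 12.90 and 12.42 in controls and 12.91, 12.50, 12.72 and 12.97 in treated rats, a difference of 0.22 ± 0.20 (interval -0.23 to 0.67). Control replicate 3 stood with the treated rats. Psmb7, the trypsin-like subunit, differed by 0.18 ± 0.17 (interval -0.19 to 0.56). Its levels were 13.20, 12.99, 13.09 and 13.08 in controls and 13.34, 13.32, 13.10 and 13.32 in treated rats, of which replicate 3 lay among the controls. Psmb3, a structural beta subunit, had the largest negative difference of the ring, -0.35 ± 0.26 (adjusted p = 0.411), where controls spanned 12.33 to 13.31 and treated rats 12.07 to 12.77. Without control replicate 3, at 13.31, the difference was -0.16.

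The ATPases of the 19S cap, Psmc1 to Psmc6, form the ring that unfolds substrates. Psmc4 had the largest difference of the 6, at 0.47 ± 0.17 (1.39-fold, adjusted p = 0.1), and did not pass. Its level was 12.74, 12.68, 12.91 and 12.80 in controls and 13.41, 13.10, 13.32 and 13.20 in treated rats, so that every treated rat was above every control. It was also the only one of the 6 with an unadjusted p under 0.05. Psmc4 passed when dim probe sets were left out of the table (adjusted p = 0.0441) and with an intensity trend and robust estimation (adjusted p = 0.0259). The other ATPases differed by -0.0038 (Psmc6) to 0.32 (Psmc2, 0.16 without treated replicate 4), and Psmc6 was 0.10 with array weights.

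The non-ATPase subunits of the cap were measured by 14 probe sets of 11 genes. In limma 0 passed, where 9.46% of all probe sets rose and 5.14% fell. Before adjustment 1 was higher and 0 lower, against 16.9% and 12.6% of all probe sets. Psmd13, a lid subunit, had the largest difference, 0.54 ± 0.18 (1.45-fold, adjusted p = 0.0824). Its level was 11.80, 11.92, 11.91 and 12.17 in controls and 12.35, 12.75, 12.39 and 12.45 in treated rats, and the groups did not overlap. Like Psmc4 it passed without the dim probe sets (adjusted p = 0.0385) and with the trend and robust estimation (adjusted p = 0.0312). Psmd14 is the lid enzyme that cuts the ubiquitin chain off the substrate. Both of its probe sets are described in the files as similar to T-Brain-1, a different gene, and they did not agree: one was at 12.81, 12.50, 13.02 and 13.01 in controls and 12.86, 13.28, 13.25 and 13.41 in treated rats (difference 0.37 ± 0.21, adjusted p = 0.271). The other was between 6.27 and 6.82 on all arrays, near or under background, so which of them reports Psmd14 cannot be told from the files. The second probe set of Psmd11 had the largest negative difference, -0.21 ± 0.27, where controls spanned 10.17 to 11.14 and treated rats 10.03 to 10.82.

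The 33 probe sets of 20S and 19S subunits above background gave 0 calls in limma (before adjustment, 2 higher and 0 lower), against 23.5% of the 10120 probe sets above background on all arrays. For 33 of 33 the interval lay inside a 2-fold change, against 48.8% of the 10120. The medians of core and cap on each array are given next, and the difference between them was not tested. In the 14 core probe sets the median deviation from the control mean was 0.20 in control replicate 3 and between -0.13 and -0.02 in the other controls, and it was 0.18, -0.0026, -0.17 and 0.16 in treated replicates 1 to 4. Control replicate 3 was the highest control for 11 of these 14 probe sets, and treated replicate 3 the lowest treated rat for 9. Core medians therefore overlapped between the groups. In the 19 cap probe sets the medians were -0.04, -0.06, 0.10 and 0.04 in controls. They were 0.16, 0.21, 0.22 and 0.19 in treated rats, with no overlap. The median of all probe sets above background was 0.05, 0.0049, -0.08 and 0.05 in controls, and 0.07, 0.08, 0.04 and 0.03 in treated rats. Relative to that median on the same array, the cap of control replicate 3 lay among the treated rats. The shift of the cap is small and was not tested. Control replicate 3, the array with the highest background, stands apart in both the core medians and the correlation with its group, and its part in these values was not tested.

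**Figure D2:**
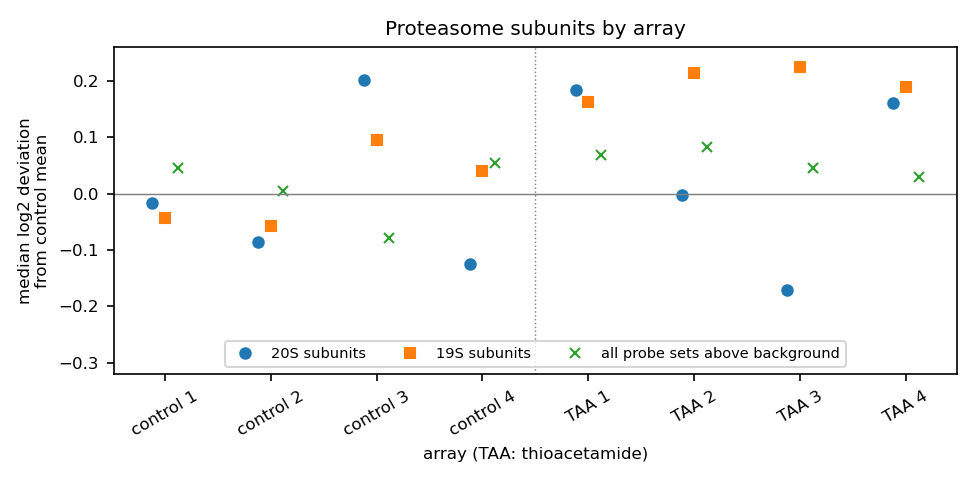
Median log2 deviation from the control mean (y axis) on each of the 8 arrays (x axis) for 14 core probe sets, 19 cap probe sets and all probe sets above background. Core medians overlap between the groups, while cap medians are 0.16 to 0.22 in treated rats and -0.06 to 0.10 in controls. Relative to the median of all probe sets on the same array, the cap of control replicate 3 lies among the treated rats.

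The assembly chaperones held both members that changed. Psmg1 (PAC1) forms a heterodimer with Psmg2 (PAC2) that starts the alpha ring. Psmg1 was at 12.07, 11.96, 11.91 and 12.07 in controls and 11.21, 10.94, 10.84 and 11.36 in treated rats. The lowest control was above the highest treated rat, and Psmg1 fell 1.88-fold (log2 difference -0.91 ± 0.19, limma adjusted p = 0.00987). It passed in each of the 16 alternative fits, with differences from -1.07 to -0.83. Its partner Psmg2 lay the other way, at 10.33, 10.23, 10.52 and 10.10 in controls and 10.79, 10.85, 10.70 and 10.84 in treated rats. Every treated rat was above every control for Psmg2, but the difference of 0.50 ± 0.18 (adjusted p = 0.0886) did not pass. It passed without the dim probe sets (adjusted p = 0.0392) and with array weights (adjusted p = 0.0447). The files name Psmg1 and Psmg2 by older symbols (Dscr2 and Tnfsf5ip1), and each had 1 probe set of 3 probes.

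The 19S base has its own chaperones, Psmd5 (S5b), Psmd9 (p27) and Psmd10 (gankyrin). Psmd5 was at 11.49, 11.22, 10.06 and 11.29 in controls and 12.02, 12.56, 12.12 and 11.90 in treated rats. Groups did not overlap, and Psmd5 rose 2.20-fold (1.14 ± 0.32, adjusted p = 0.0396). Control replicate 3 was more than 1 log2 unit below the other controls, and without it the difference was 0.82 (adjusted p = 0.0323). The call was lost without control replicate 2 (adjusted p = 0.0647), without treated replicates 1, 2, 3 and 4 (adjusted p = 0.0835, 0.125, 0.0887 and 0.0534) under median centring (adjusted p = 0.0575) and with the replicate number as a block (adjusted p = 0.0757). Psmd9 was at 12.02, 11.97, 11.77 and 12.09 in controls and 11.63, 11.56, 11.50 and 11.75 in treated rats. All its treated values lay under the lowest control, and the difference was -0.35 ± 0.17 (adjusted p = 0.212). Psmd10, which also binds the retinoblastoma protein and is studied as an oncoprotein in liver cancer, differed by 0.07 ± 0.20 (95% interval -0.37 to 0.51) with overlapping groups; its sign turned under cyclic loess, with array weights, and without control replicates 2 and 3 and treated replicate 4 (-0.15, -0.021 and -0.13).

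**Figure D3:**
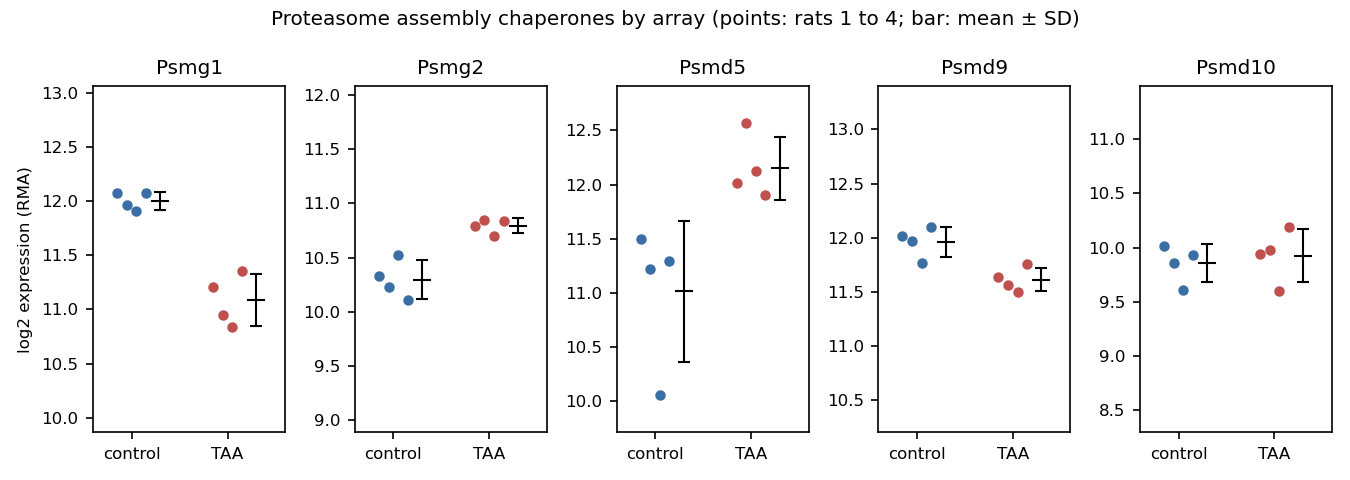
Log2 level (y axis, the same span of 3.2 units in each panel) of the 5 assembly chaperones in 4 control and 4 treated (TAA, thioacetamide) rats, with mean ± SD beside the points. Psmg1 is lower and Psmd5 higher in every treated rat than in any control. Psmg2 and Psmd9 also show groups that do not overlap, without passing the test.

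Among the activators, Psme3 (PA28 gamma), a nuclear cap that opens the core without ATP, was at 11.95, 12.28, 12.19 and 12.13 in controls and 12.20, 12.87, 12.66 and 12.73 in treated rats. Treated replicate 1 lay among the controls, and the difference of 0.48 ± 0.20 (adjusted p = 0.149) did not pass. Psme4 (PA200), another nuclear activator, differed by -0.07 ± 0.23 (interval -0.59 to 0.44). Psme3ip1, which binds Psme3, had a bright probe set with a difference of 0.33 ± 0.18 (adjusted p = 0.245) and a second one between 5.62 and 6.34, under background on all arrays. Psmc3ip is named for binding Psmc3 but works in meiotic recombination, and it differed by 0.50 ± 0.27 (adjusted p = 0.254). That value was 0.26 without control replicate 3 (8.67, against 9.53 to 9.71 in the other controls), 0.18 without control replicates 2 and 3 and treated replicate 4, 0.29 with array weights and 0.26 under cyclic loess.

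The remaining 6 probe sets were of Psma8, the alpha subunit of testis, Psmb11, the beta subunit of thymic epithelium, and loci named as a pseudogene (Psma6-ps1) or as like Psmb3 (Psmb3l2, Psmb3l3). Psma6-ps1 and one of the 2 Psma8 probe sets were under background on all arrays. Psmb11 was above it on 3 of 8 arrays, with a difference of -0.56 ± 0.25 (adjusted p = 0.16), and neither of these tissue-restricted subunits was clearly detected in liver. Only Psmb3l2 was above background on all arrays, where controls spanned 8.48 to 10.48 and treated rats 9.22 to 9.83, and near-identical copies of Psmb3 may share its signal. Its difference of 0.15 was negative under cyclic loess, with array weights, and without control replicates 2 and 3 and treated replicate 4.

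Promoter windows show what the members share in sequence. RefSeq (GRCr8) gave a window from 250 bases before to 50 after the gene start for 36 of the 45 genes. Psma3l, Psma6-ps1, Psma7, Psmb11, Psmb3l2, Psmb3l3, Psmd12, Psmd14 and Psmd6 had no window. On either strand, CCGGAAG, the letters that ETS factors bind, stood in 16 of 36 windows (44.4%, against 8.74% of 33469 windows of the same length in all genes). GGGCGG, the GC box of Sp factors, stood in 26 (72.2%, against 33.1%). CCAAT, bound by NF-Y, stood in 18, against 37.5% of all windows. TGACNNNGC, the core of the antioxidant response element bound by Nrf1 and Nrf2, stood in 7 (19.4%, against 12.1%): Psmb2, Psmb5, Psmb6, Psmd1, Psmd3, Psmd9 and Psme4. These 7 genes had log2 differences from -0.35 (Psmd9) to 0.23 (Psmd3, 0.04 without control replicate 3). In limma 0 of 7 passed (0 before adjustment), against 23.5% of the 10120 probe sets above background on all arrays. With only 7 genes, a count of 0 cannot be set apart from that share. The 4 strings were chosen from 10 that were counted, base composition was not matched, and a match describes letters, not a bound site.

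The windows of the 2 members that changed and of 2 catalytic subunits that hold the antioxidant response letters are printed 5′ to 3′ on the gene's strand, with matches to any of the 4 strings on either strand in capitals. No matches overlapped. Psmd5 (chr3:38548441-38548740, minus strand) holds GGGCGG at 2 places, and Psmg1 (chr11:48754991-48755290, minus strand) holds GGGCGG and CCGGAAG. Psmb5 (chr15:32047330-32047629, minus strand) and Psmb6 (chr10:55737638-55737937, plus strand) hold TGACNNNGC, and Psmb6 also holds GGGCGG on the other strand.
Psmd5: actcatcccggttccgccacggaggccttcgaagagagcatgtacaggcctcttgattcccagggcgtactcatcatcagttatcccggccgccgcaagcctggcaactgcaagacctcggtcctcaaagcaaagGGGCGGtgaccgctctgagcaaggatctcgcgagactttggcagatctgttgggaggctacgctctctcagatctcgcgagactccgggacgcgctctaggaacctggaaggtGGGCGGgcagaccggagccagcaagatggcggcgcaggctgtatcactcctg
Psmg1: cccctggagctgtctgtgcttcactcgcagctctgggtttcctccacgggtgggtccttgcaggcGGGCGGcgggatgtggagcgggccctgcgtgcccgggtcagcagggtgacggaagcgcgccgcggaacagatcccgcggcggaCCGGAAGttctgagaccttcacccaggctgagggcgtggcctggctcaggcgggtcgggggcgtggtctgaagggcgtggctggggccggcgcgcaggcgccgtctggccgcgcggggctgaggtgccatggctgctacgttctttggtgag
Psmb5: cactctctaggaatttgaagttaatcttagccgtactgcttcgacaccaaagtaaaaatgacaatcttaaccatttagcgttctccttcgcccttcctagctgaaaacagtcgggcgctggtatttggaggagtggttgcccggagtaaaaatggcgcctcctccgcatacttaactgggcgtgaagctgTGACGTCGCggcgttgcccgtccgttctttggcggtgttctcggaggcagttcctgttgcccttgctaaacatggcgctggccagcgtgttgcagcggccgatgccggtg
Psmb6: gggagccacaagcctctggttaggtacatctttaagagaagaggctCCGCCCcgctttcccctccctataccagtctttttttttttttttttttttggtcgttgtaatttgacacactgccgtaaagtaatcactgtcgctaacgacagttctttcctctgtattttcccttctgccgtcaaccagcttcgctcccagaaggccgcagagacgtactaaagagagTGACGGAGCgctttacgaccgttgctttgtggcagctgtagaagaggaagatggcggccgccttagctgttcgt

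The subunits that the rule left out showed another pattern, and they were compared with the standard subunits they replace. Psmb8 was at 13.32, 13.04, 13.58 and 13.25 in controls and 12.67, 11.92, 11.81 and 12.32 in treated rats, and it fell 2.17-fold (-1.12 ± 0.24, adjusted p = 0.0114). Psmb10 fell 2.65-fold (-1.40 ± 0.36, adjusted p = 0.0276), where controls spanned 10.29 to 12.05 and treated rats 9.12 to 10.04. That call was lost without treated replicate 2, 3 or 4 (adjusted p = 0.0932, 0.0672 and 0.0544). Psmb9 differed by -0.96 ± 0.39 (adjusted p = 0.132), with overlapping groups. Its control replicate 3 was at 13.80 against 12.05 to 12.39 in the other controls, and without that rat the difference was -0.56. The interferon-inducible activator genes Psme1 and Psme2 differed by 0.12 ± 0.19 and 0.01 ± 0.29 (adjusted p = 0.717 and 0.992), and Psme2 was -0.055 under median centring, -0.071 under cyclic loess and -0.0145 under quantile normalization.

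The log2 ratio of each immunoproteasome subunit to its standard counterpart was then taken on each array, with the control mean set to 0. The ratio of Psmb8 to Psmb5 was -0.08, -0.01, -0.09 and 0.18 in controls and -0.95, -1.17, -1.28 and -1.39 in treated rats. For Psmb9 to Psmb6 the treated rats ran from -1.52 to -0.90 against -0.42 to 0.85 in controls, and for Psmb10 to Psmb7 from -2.11 to -1.21 against -0.60 to 1.05. The shifts were -1.20, -1.18 and -1.59, lower in 4 of 4 treated rats than in any control for each of the 3 pairs. The two-sided exact permutation test gave p = 0.0286 for each, which is the smallest that 4 against 4 arrays can give, and 0.0286 after adjustment over the 3 pairs. Leaving out any 1 array kept the shifts between -1.28 and -1.14, -1.32 and -0.90, and -1.79 and -1.24. The pairs were tested with these values in view, so the p-values restate the lack of overlap and are no independent support. Adjustment leaves 3 equal p-values unchanged, and Psmb9 itself did not pass in limma.

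Immunoproteasome genes are strongly expressed by blood-derived cells, and some markers of these cells fell while others did not. Of 10 macrophage markers 4 fell (Cd14, Marco, Csf1r and Clec4f) and 0 rose (before adjustment, 7 and 0). Over all genes with 1 probe set each, 5.24% fell and 9.67% rose (before adjustment, 12.7% and 17.2%). Each marker count stands beside these shares and was not tested against them. The summed level of the macrophage markers was 15.1 to 15.8 in controls and 14.4 to 15 in treated rats (log2). This sum is weighted toward its brighter probe sets, among them Cd14 (-2.16) and Cd68. Cd163, Cd68 and Lyz2, which macrophages also express, differed by -0.06, -0.16 and 0.41 (adjusted p = 0.884, 0.737 and 0.445), and Lyz2 passed as higher without control replicate 3 (0.74, adjusted p = 0.0435). The list for T and NK cells had 9 genes, of which 3 fell and 0 rose (before adjustment, 3 lower and 1 higher). The genes that fell, Gzma (-2.21), Prf1 (-1.10) and Nkg7 (-1.04), belong to cytotoxic cells. The summed level of the 9 was 11.3 to 12 in controls and 10.4 to 10.8 in treated rats. A sum is weighted toward its brighter probe sets, and only Gzma and Prf1 were above background on all arrays. It is therefore no measure of the T cell genes of the list. No T cell gene of the list passed: Cd3g differed by 0.70 ± 0.26 (adjusted p = 0.105), above background on 3 treated and 0 control arrays, and it passed as higher without treated replicate 4 (0.93, adjusted p = 0.0277). Cd3d, Cd2 and Cd8a differed by -0.04, 0.12 and 0.18, and Cd3e was at or under background on all arrays, as were 3 of the 4 B cell markers measured.

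Cd14, Gzma and Prf1 passed in all 16 alternatives. Marco lost its call without control replicate 2 or any 1 treated rat (adjusted p from 0.051 to 0.107), Csf1r without control replicate 4 or treated replicate 2 or 4 (0.0505 to 0.0878), and Clec4f without control replicate 1 or treated replicate 1, 2 or 3 (0.055 to 0.0875). Nkg7 lost it without control replicate 1, 2 or 3 or treated replicate 2, 3 or 4 (0.0622 to 0.107). With the replicate number as a block, Marco, Csf1r, Clec4f and Nkg7 lost their calls (0.0617 to 0.0765). Without control replicates 2 and 3 and treated replicate 4, Marco, Csf1r and Nkg7 lost theirs (0.0934 to 0.132). Nkg7 also lost its call with array weights (0.055) and with the trend and robust estimation (0.0549).

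Some markers of other liver cells moved too, to be read beside the same shares of all genes (5.24% lower and 9.67% higher). The lists are short, and their counts were not tested against those shares. Of 6 endothelial markers 5 had negative differences, and Vwf fell (-0.91 ± 0.22, adjusted p = 0.0226), while Stab2 differed by 0.73 ± 0.37 (adjusted p = 0.224). Of 6 bile duct markers Cldn7 (3.52, 11.5-fold) and Epcam (1.87, 3.64-fold) passed as higher and 0 as lower. The other differences included 1.26 for Sox9 (adjusted p = 0.0931), 0.08 for Krt19 and -0.31 for Spp1, the only negative 1 of the list. Of 6 stellate cell markers Lrat (0.73) and Des passed as higher and 0 as lower. Des was above background on 0 control and 2 treated arrays, so its difference of 1.01 lies near background and no fold is given. Acta2 and Pdgfrb differed by -0.71 and -0.46 (adjusted p = 0.309 and 0.394), and 4 of the 6 differences were positive. Vwf lost its call without treated replicate 1 or 3 (adjusted p = 0.0698 and 0.0644), Des without control replicate 1 or 3 or treated replicate 1, 2 or 3 (0.0577 to 0.124), and Lrat without control replicate 1 or treated replicate 1, 2 or 3 (0.055 to 0.0759). With the replicate block, Vwf, Des and Lrat each lost the call (0.0591 to 0.0908). Vwf also lost it without control replicates 2 and 3 and treated replicate 4 (0.085), and Des under median centring (0.0561). Lrat also lost it under cyclic loess (0.0875) and with the trend and robust estimation (0.0511). The part of these cells in the levels of the immunoproteasome, pathway and Nrf2 target genes was not tested, and in whole liver fewer cells of a type and less RNA per cell cannot be told apart.

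**Figure D4:**
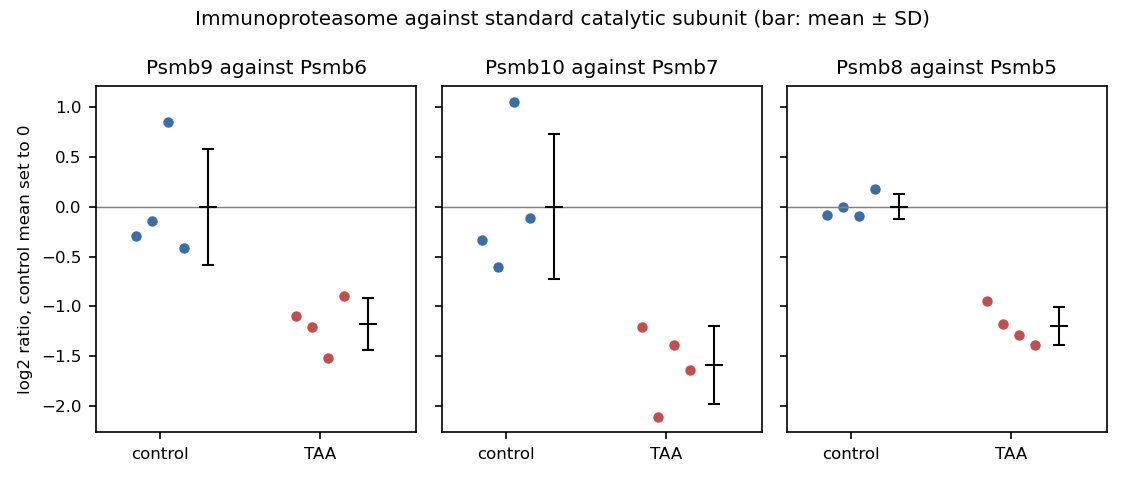
Log2 ratio of an immunoproteasome subunit to the standard subunit it replaces (y axis, control mean set to 0) in 4 control and 4 treated (TAA, thioacetamide) rats, with mean ± SD beside the points. In each of the 3 pairs all treated rats lie below all controls.

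The genes around the proteasome, 43 measured of a list of partners, ubiquitin carriers, ubiquitin genes and regulators, gave 9 rises and 0 falls, and their median difference was 0.25. Over all 24144 genes with 1 probe set each, 9.67% rose and 5.24% fell. Before adjustment the list had 16 genes higher and 0 lower, against 17.2% and 12.7% of all genes, whose median was -0.04. The count of 9 rises ran from 5 to 13 over the alternatives. It was 5 without control replicate 2, 5 without treated replicate 2 and 5 with the replicate number as a block. With array weights it was 10, without dim probe sets 13, and with the trend and robust estimation 13.

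Among the regulators, Nfe2l2 was at 11.84, 11.46, 11.02 and 11.33 in controls and 13.13, 13.39, 13.43 and 13.39 in treated rats. The groups were more than 1 log2 unit apart, and Nfe2l2 rose 3.80-fold (1.92 ± 0.21, adjusted p = 0.000393). Of its small Maf partners, Maff and Mafk also rose. Maff was at least 7.95-fold higher (a bound, since no control array was above background, adjusted p = 4.24e-05). Mafk was 2.25-fold higher (adjusted p = 0.00545, 2 of 4 control arrays above background). Mafg, the other small Maf of the list, was above background on all arrays and differed by -0.30 ± 0.21 (adjusted p = 0.361). Nfe2l1, whose product drives the recovery of proteasome genes after inhibition, differed by 0.52 ± 0.23 (adjusted p = 0.154), and its controls (12.19 to 12.69) overlapped the treated rats (12.65 to 13.43).

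Of 12 further Nrf2 targets, 8 rose and 0 fell, against 9.67% and 5.24% of all genes, with a median of 1.50. Me1 and Sqstm1 differed by 0.19 and 0.24 (adjusted p = 0.759 and 0.386), and Slc7a11 and Srxn1 were under background on all arrays. Gclm, which codes for a subunit of the glutathione synthesis enzyme, rose 3.31-fold and Txnrd1, thioredoxin reductase, 3.16-fold. The subunits of core and cap gave 0 rises in the same livers, with the largest difference at 0.54. Another large complex, the cytosolic ribosome, had 68 genes measured, of which 11 rose and 0 fell, against the same shares of all genes, with a median of 0.41. That count ran from 1 to 28 over the alternatives (1 with the replicate block, 28 with the trend and robust estimation, and 5, 6, 3, 5 and 7 without control replicates 1 and 2 and treated replicates 1, 2 and 4, left out one at a time).

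Of 12 partners, 2 rose and 0 fell, against 9.67% and 5.24% of all genes. Before adjustment 4 were higher and 0 lower, against 17.2% and 12.7%. Counts this small were not tested against those shares. Zfand2a (AIRAP), a zinc finger protein that joins the proteasome under arsenite stress, was at 7.36, 8.12, 6.61 and 7.82 in controls and 10.14, 10.34, 10.19 and 10.17 in treated rats. The treated values lay close together, above every control, and Zfand2a rose 6.65-fold (2.73 ± 0.30, adjusted p = 0.000386, 3 of 4 control arrays above background). Zfand5, a relative of Zfand2a that activates the proteasome, rose by 0.85 ± 0.22 (1.80-fold, adjusted p = 0.0276). It lost the call without control replicate 2 (adjusted p = 0.0665) and without treated replicates 1, 2 and 4 (adjusted p = 0.0623, 0.0876 and 0.0619), with the replicate block (0.0562), and without control replicates 2 and 3 and treated replicate 4 (0.151). Pomp, the maturation protein of the core, differed by -0.14 ± 0.22 (interval -0.63 to 0.34, adjusted p = 0.71, and 0.003 without treated replicate 2).

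Of 14 genes that deliver ubiquitin-tagged proteins, 3 rose and 0 fell, against 9.67% and 5.24% of all genes. Before adjustment 4 were higher and 0 lower, against 17.2% and 12.7%, and these counts were not tested against the shares. The genes that rose were the shuttle proteins Rad23b (0.86 ± 0.24, adjusted p = 0.0397), Ubqln1 (0.76 ± 0.19, adjusted p = 0.0275) and Ubqln4 (0.73 ± 0.21, adjusted p = 0.045). Ubqln1 was at 12.82, 12.74, 12.75 and 13.21 in controls and 13.44, 13.75, 13.82 and 13.53 in treated rats, with no overlap. These 3 calls were lost in 8, 6 and 10 of the 16 alternatives. Rad23b did not pass without control replicate 1, 2 or 3 or treated replicate 1, 2 or 3 (adjusted p from 0.0622 to 0.112). Ubqln1 did not pass without control replicate 1 or 2 or treated replicate 2 or 3 (0.0631 to 0.0879). Ubqln4 did not pass without control replicate 1 or 2 or treated replicate 1, 2 or 3 (0.0831 to 0.123). Of the ubiquitin genes, Uba6, which codes for a ubiquitin-activating enzyme, rose 3.71-fold (1.89 ± 0.31, adjusted p = 0.00323, 2 of 4 control arrays above background). Ubb, which codes for a chain of ubiquitin units, differed by 0.21 ± 0.27 (adjusted p = 0.642), with overlapping groups, and by 0.08 to 0.41 with 1 array left out.

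**Figure D5:**
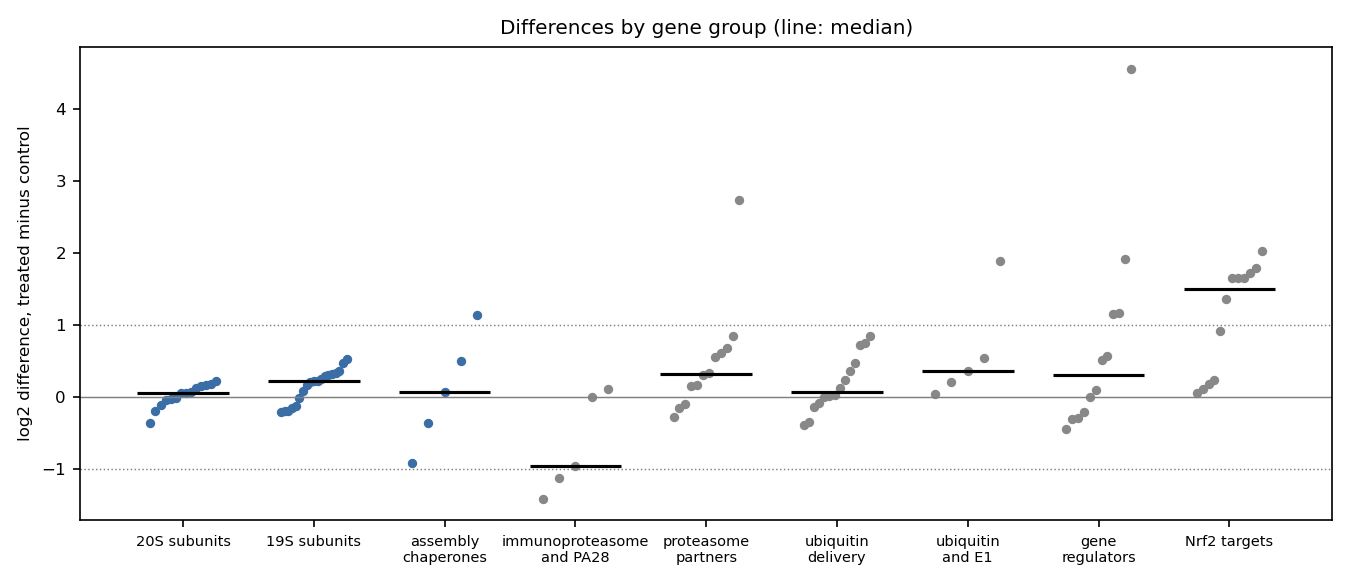
Log2 difference between treated and control liver (y axis) for each probe set or gene of 9 groups (x axis), with the median as a line and a 2-fold change as dotted lines. Core and cap subunits lie between -0.35 and 0.54, while the assembly chaperones, immunoproteasome, partners, ubiquitin genes, regulators and Nrf2 targets each have at least 1 point past a 2-fold change.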

How the data were processed

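Liver RNA of 8 rats was hybridised to NimbleGen arrays with 1 dye (Cy3). The deposited log2 values are 1 per probe set and array and were made by the authors with RMA, per the submitters' processing notes; its version and settings: not given in the sources used here. They were used without further normalization. Each of the 26208 probe sets summarised 1 to 3 probes (members 2 or 3), and 11 probe sets, none a member, had no value in control replicate 4. Gene identifiers were matched to a RefSeq table of GRCr8 (20543 by identifier, 31 by accession, 5634 kept the symbol of the files). Treated and control rats were compared with limma 3.58.1 (lmFit, eBayes, two-sided) in R 4.3.3, without a block, and p-values were adjusted by Benjamini-Hochberg across the whole table (threshold 0.05). A value after ± is the standard error from limma, or an SD where so marked, and 95% intervals are those of the fit, not adjusted. For genes outside the members, the probe set with the highest mean stood for the gene. Each group held 4 animals per the labels, so p-values measure the spread between animals, and precision is limited by how many arrays there are. Background used 1312 olfactory receptor probe sets. Where a group was at or under it on every array, the fold is a bound taken against the higher of background and value.

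The members, lists, roles, background rule and tests were chosen with earlier results of these data known. Any member could be named, in the order of roles assigned after matching; array values were due for members past the threshold, the largest differences within each role and members whose probe sets disagree, and those of the catalytic subunits, chaperones and Psme3 were added after their values were seen. Of each pathway list the changed genes were named, with Nfe2l1, Nfe2l2, Pomp and the genes left out by the rule; other genes outside the members were named after their values were seen. Alternatives were 1 probe set per gene, members above background on all arrays, median centring, cyclic loess, quantile normalization, a filter on dim probe sets (above background on at least 4 arrays), array weights, a trend on intensity (with robust estimation), a block on the replicate number, each array omitted in turn, and omitting control replicates 2 and 3 with treated replicate 4. The fit was tested on simulated data.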

Additional observations from a re-analysis of the deposited data

Results flagged for a closer look

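In 5 of the 100 groups of 4 rats (50 probe sets, 2 groups each) 1 rat lay far from the other 3 by Dixon's test at the 95% level, which chance flags in about 1 group in 20. Psmb6 was at 12.90 in control replicate 3 against 12.40 to 12.48 in the other controls, and Psmd7, a lid subunit, was at 12.27 there against 12.54 to 12.56. In treated rats, Psmb7 was at 13.10 in replicate 3 against 13.32 to 13.34, Psmd1, the large base subunit, was at 13.59 in replicate 4 against 13.16 to 13.21, and Psmb3l3 was at 6.81 in replicate 4 against 6.10 to 6.12, under background on all treated arrays.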

How the results depend on the processing

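The fall of Psmg1 was called in all alternatives, with 1 lower member in each, 1 probe set per gene included. The count of higher members was 1 as deposited, 0 under median centring, 2 with array weights, 3 with the trend and robust estimation, 4 without dim probe sets and 0 to 1 with an array left out. The members' median was 0.15 without dim probe sets or over the members above background on all arrays, where fewer dim members were left, 0.02 under median centring, 0.05 under cyclic loess, and 0.06 to 0.13 with an array left out, against 0.08 as deposited. Deviations of same-numbered rats correlated at 0.25, -0.10, -0.13 and -0.43, and those of differently numbered rats at -0.38 to 0.43. These values show no common pairing by replicate number, but they cannot exclude that same-numbered rats shared a batch. With the replicate block, 0 members rose and 1 fell, and 2163 of all probe sets changed, against 3827 without it and 2166 to 3924 with an array left out. Over 59 of the genes and probe sets given with values, 940 alternative values were computed, those of the Nrf2 targets and markers chosen after seeing the data: 809 kept direction and side of the threshold, 85 lost the call, 11 gained it and 35 changed sign, all of these among uncalled differences. Psmc6 was 0.10 with array weights and 0.072 without control replicates 2 and 3 and treated replicate 4. For the same settings Psmd10 was -0.021 and -0.13 (-0.15 under cyclic loess) and Psmb3l2 was -0.20 and -0.66 (-0.088 under cyclic loess). Psme2 was -0.071, -0.055 and -0.0145 under cyclic loess, median centring and quantile normalization, and the dim Psmd14 probe set was 0.037 under quantile normalization. With 1 array left out, Psmb5 ran from -0.029 to 0.20, Psmc6 from -0.15 to 0.14, Psmd10 from -0.016 to 0.18, the second Psmd11 probe set from -0.39 to 0.006, the dim Psmd14 one from -0.13 to 0.066, Psme4 from -0.23 to 0.0515, Psmb3l2 from -0.16 to 0.51, Psme2 from -0.15 to 0.23 and Pomp from -0.23 to 0.003. The cause of these changes was not tested. Of the members, 7 were not above background on all arrays, and their differences are not informative about liver.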
